A study of Homo sapiens with 3 samples.

Results

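The antioxidant and redox defense genes are 32 listed genes whose products remove superoxide and peroxides, keep protein thiols reduced, make and recycle glutathione, or belong to the NRF2 pathway. They were chosen by symbol, and each probe set that names 1 of them alone was kept. By this rule 29 of the 32 were measured, with 48 probe sets, among 11963 measured genes in all. In the stratified iHCE cultures 25 of the 29 were above background on all 3 arrays, which is 86.2% against 44.7% of all measured genes. They included the superoxide dismutase gene *SOD1*, the catalase gene *CAT*, every measured peroxiredoxin gene, all 7 genes of the thioredoxin and glutaredoxin class, the NRF2 gene *NFE2L2* and its target *NQO1*. The 4 genes not above background were the glutathione peroxidase genes *GPX2* and *GPX3*, the glutathione reductase gene *GSR* and the heme oxygenase gene *HMOX1*.

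Superoxide formed by respiration and by light is turned into hydrogen peroxide by superoxide dismutases, and the peroxide is then removed by catalase, by glutathione peroxidases and by peroxiredoxins. The last of these are kept active by thioredoxin and thioredoxin reductase, and glutathione peroxidases by glutathione and glutathione reductase. The transcription factor NRF2 is held in the cytoplasm by KEAP1 and, when oxidants or electrophiles modify KEAP1, it enters the nucleus and switches on many of these genes. The corneal epithelium faces light, oxygen and foreign chemicals directly, and these enzymes are known there as a defense against oxidants.

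The cells were SV40-immortalized human corneal epithelial cells (iHCE), an established line that carries the viral large T antigen, at passages 22 to 23. All 3 cultures grew on collagen-coated inserts, submerged for 1 week and then at the air-liquid interface so that the cells stratified, and each came from its own culture batch. The medium held 15% serum, insulin at 5 µg/ml, cholera toxin at 0.1 µg/ml, EGF at 10 ng/ml and dimethylsulfoxide at 0.5%. Ascorbic acid, itself an antioxidant, was added at 40 µg/ml when the apical medium was removed. The series therefore has no culture without these additions, and their part in the levels was not tested. Electrical resistance across the layer was 489, 439 and 468 Ω · cm2 in cultures 1, 2 and 3, above the limit of 300 Ω · cm2 set for taking RNA. The study set these cultures against native corneal epithelium, but the tissue arrays were not analysed here. No group was compared with another, and the values below describe the iHCE side.

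RNA was hybridized to Affymetrix HG-U133A arrays, 1 per culture, and values are log2 expression values computed by the authors with Robust Multi-array Average (RMA). "Above background" here means that a gene read higher, in every culture, than 95% of a panel made up of genes known from other tissues. These thresholds were 7.13, 7.05 and 7.13 in cultures 1, 2 and 3. Where a gene had several probe sets, that with the highest mean stood for it. Probe sets differ in affinity, so values of different genes are not set against each other as amounts. Arrays give no counts, and with 3 arrays each mean is only as precise as that number allows.

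The defining markers of the labelled cell type were not above background. Of 9 measured markers of the corneal epithelium, among them *KRT3*, *KRT12* and *PAX6*, 0 were above background on any array, with means from 3.96 to 6.83. *PAX6* came nearest, at 7.11, 6.55 and 6.83 in cultures 1, 2 and 3, just under the threshold of 7.13 in culture 1. All 6 genes listed as markers of simple epithelia were above background, with means from 10.24 to 12.58. They were *KRT7*, *KRT8*, *KRT18*, *KRT19*, *EPCAM* and *CDH1*. Of these the study names *KRT7* and *KRT18* as keratins of simple epithelia. Whether the others are particular to simple epithelia was not tested here. Of the 6, 4 were highest in culture 1, and the medians of the 6 were 11.04, 10.83 and 10.78 in cultures 1, 2 and 3. Markers of immune cells, melanocytes, endothelium and red cells were above background on no array, and of 6 keratocyte and fibroblast markers *COL1A1* alone exceeded the threshold, on 1 array. The array of culture 1 stood apart: 185 and 222 probe sets of the whole table differed by 1 log2 unit or more between it and cultures 2 and 3, against 13 between cultures 2 and 3. The poly-A control transcripts were lower there than on both other arrays at 24 of 24 probe sets, with medians of 5.44, 6.82 and 6.67. The 3′ minus 5′ difference of the *GAPDH* control probe sets was 1.64, 1.34 and 1.28 in cultures 1, 2 and 3, and that of *ACTB* lay between 2.99 and 3.25. On every array the 3′ control probe sets thus read well above the 5′ ones. The part of this in the values of other probe sets was not tested.

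**Figure D1:**
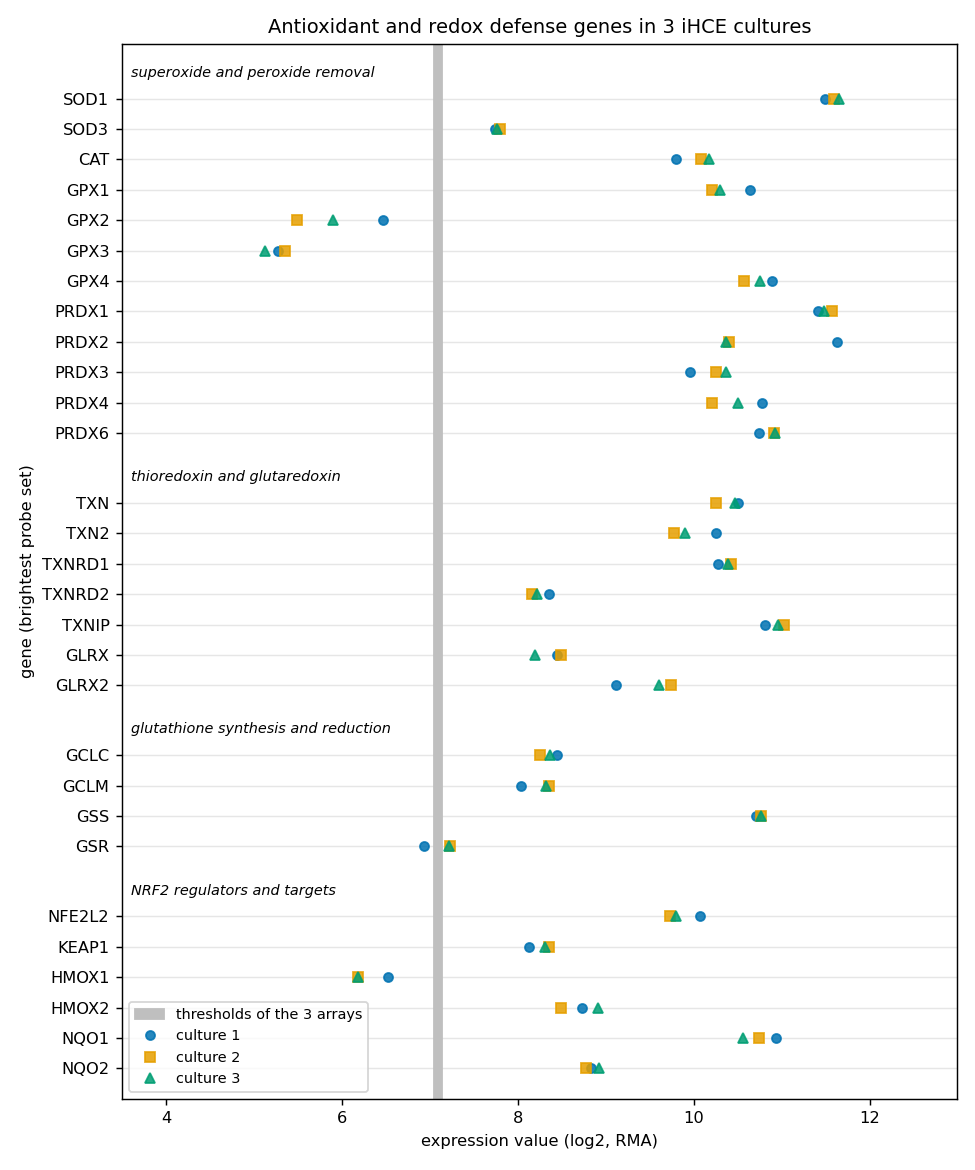
Expression values (log2, RMA) of the 29 measured antioxidant and redox defense genes at their brightest probe set, by class, with 1 symbol per culture and the thresholds of the 3 arrays as a grey band. *GPX2*, *GPX3* and *HMOX1* lie left of the band in all 3 cultures and *GSR* lies beside it, while the other 25 lie to its right; the places of different genes on the axis also depend on probe affinity.

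Superoxide and peroxide removal was represented by 12 of 14 listed genes, and 10 of them were above background (83.3%, against 44.7% of all measured genes). *SOD1*, the copper-zinc superoxide dismutase of the cytosol, read 11.49, 11.59 and 11.65 in cultures 1, 2 and 3, a mean of 11.58 ± 0.08 (SD, n = 3 cultures, as throughout). The 3 cultures were close together, and *SOD1* has 1 probe set. *SOD3*, the secreted superoxide dismutase bound to the extracellular matrix, read 7.74, 7.80 and 7.76. Of the members above background it lay nearest to the threshold, 0.66 log2 units over it on average, and its 1 probe set is of the _x_at kind, which can also bind other transcripts. It was not above background with a threshold of the panel median plus 3 scaled median absolute deviations (MADs). *SOD2*, the mitochondrial manganese enzyme, was not analysed here, since its 4 probe sets also name another gene.

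*CAT*, the peroxisomal catalase, read 9.79, 10.08 and 10.18 in cultures 1, 2 and 3 at its brightest probe set, a mean of 10.02 ± 0.20. Culture 1 was the lowest there. Its other probe sets had means of 7.07 and 3.88, and neither was above background on all 3 arrays.

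The glutathione peroxidases, selenium enzymes that reduce peroxides with glutathione, divided into 2 pairs. *GPX1*, the cytosolic enzyme, read 10.64, 10.21 and 10.30, a mean of 10.38 ± 0.23. *GPX4*, which reduces lipid peroxides within membranes, read 10.90, 10.57 and 10.75, a mean of 10.74 ± 0.16. Both were above background in each culture and highest in culture 1. *GPX2*, known from the epithelium of the gut, read 6.47, 5.49 and 5.90, and *GPX3*, the secreted form of plasma, 5.27, 5.35 and 5.13. Neither exceeded the threshold on any array, and values in this range carry no order between cultures.

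The 5 measured peroxiredoxin genes were all above background. *PRDX1*, a cytosolic enzyme, read 11.42, 11.57 and 11.49, a mean of 11.49 ± 0.08, and *PRDX6*, which uses glutathione in place of thioredoxin, had a mean of 10.86 ± 0.10. *PRDX3*, the mitochondrial form, read 9.96, 10.26 and 10.37, a mean of 10.20 ± 0.21. *PRDX4*, the form of the endoplasmic reticulum, read 10.78, 10.21 and 10.50, a mean of 10.50 ± 0.28. Culture 1 was lowest for the first 3 of these and highest for *PRDX4*. *PRDX5* was not analysed here.

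*PRDX2*, a cytosolic peroxiredoxin that is abundant in red cells, had the widest spread of all members above background. It read 11.63, 10.40 and 10.36 in cultures 1, 2 and 3 at its brightest probe set, a mean of 10.80 ± 0.72. Cultures 2 and 3 were nearly equal and culture 1 was 1.25 log2 units above their mean. Of all genes above background 99.5% had a range at or below that of *PRDX2*. Its other probe set above background read 8.27 in culture 1 and 7.76 in culture 3, with culture 2 between, and culture 1 was 0.39 above the mean of the others. The remaining 2 had means of 7.11 and 6.19 and were not above background on all arrays. Without culture 1 the mean at the brightest probe set was 10.38. All 3 measured red cell markers were below the threshold on every array, with means from 5.51 to 6.90. The control transcripts and the *GAPDH* 3′ minus 5′ difference also set culture 1 apart, while that of *ACTB* did not. Their part in the value of *PRDX2* was not tested.

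All 7 genes of the thioredoxin and glutaredoxin class were above background, against 44.7% of all measured genes. *TXN*, the cytosolic thioredoxin that reduces disulfides of other proteins, read 10.50, 10.26 and 10.47, a mean of 10.41 ± 0.13. This came from an _s_at probe set, the kind that matches several transcripts, and the other probe set of *TXN* had a mean of 5.10 and was below background on every array. *TXNRD1*, the cytosolic reductase that recharges thioredoxin with electrons from NADPH, read 10.28, 10.43 and 10.39, a mean of 10.36 ± 0.08. The mitochondrial pair had means of 9.98 ± 0.25 for the thioredoxin *TXN2* and 8.24 ± 0.10 for the reductase *TXNRD2*. *TXN2* read 10.25, 9.78 and 9.90, with culture 1 highest. At its other probe set above background culture 1 was also highest, with 7.88, 7.18 and 7.24. The other probe set of *TXNRD2* had a mean of 5.47, below background.

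*TXNIP*, which binds thioredoxin and blocks it and is known to follow glucose supply, was above background at all 3 of its probe sets. The brightest read 10.81, 11.03 and 10.96 in cultures 1, 2 and 3. The others read 7.92, 8.94 and 8.97, and 7.52, 8.09 and 8.09. Culture 1 was lowest at each of the 3. Its difference from the mean of the others was -0.18, -1.04 and -0.57 log2 units, so the probe sets differed in how far culture 1 lay below. The glutaredoxin genes, whose products reduce disulfides with glutathione, had means of 8.38 ± 0.15 for the cytosolic *GLRX* and 9.49 ± 0.33 for the mitochondrial *GLRX2*. *GLRX2* read 9.11, 9.74 and 9.61, with culture 1 below both others.

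Of the 4 genes of glutathione synthesis and reduction, 3 were above background (75%, against 44.7% of all measured genes). Glutamate-cysteine ligase, the enzyme that limits the rate of synthesis, is made of a catalytic and a modifier subunit. The catalytic subunit gene *GCLC* read 8.44, 8.25 and 8.36, a mean of 8.35 ± 0.10, and the modifier subunit gene *GCLM* 8.03, 8.36 and 8.32, a mean of 8.24 ± 0.18. Culture 1 was highest for *GCLC* and lowest for *GCLM*. A dimmer probe set of *GCLC* read 7.03, 7.28 and 7.28 and placed culture 1 lowest, at the edge of background. *GSS*, the synthetase of the next step, read 10.71, 10.76 and 10.76, the narrowest range of all members above background (0.05). *GSR*, the reductase that recycles oxidized glutathione, read 6.93, 7.23 and 7.21. It exceeded the threshold in cultures 2 and 3 and not in culture 1, and without culture 1 it was above background.

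Of 6 measured NRF2 regulators and targets 5 were above background (83.3%, against 44.7% of all measured genes). *NFE2L2*, the NRF2 gene, read 10.08, 9.73 and 9.80, a mean of 9.87 ± 0.18, and *KEAP1*, the gene of its inhibitor, 8.13, 8.36 and 8.30, a mean of 8.26 ± 0.12. Culture 1 was the highest for *NFE2L2* and the lowest for *KEAP1*. The quinone reductase gene *NQO1*, a classical NRF2 target, was above background at all 3 probe sets, with means of 10.75 ± 0.18, 10.33 ± 0.08 and 8.84 ± 0.12. All 3 are of the _s_at kind, which can match several transcripts. These disagreed on the cultures: the brightest read 10.93, 10.75 and 10.56 and the next 10.26, 10.31 and 10.42, so culture 1 was highest in the former and lowest in the latter. *NQO2*, a related quinone reductase, read 8.84, 8.77 and 8.92. *HMOX1*, the inducible heme oxygenase and another known NRF2 target, read 6.53, 6.18 and 6.18 and was above the threshold on no array. Its constitutive relative *HMOX2* was above background at its brighter probe set, of the _s_at kind, at 8.73, 8.49 and 8.92. The other probe set of *HMOX2* had a mean of 7.07 and was over the threshold on 1 array only. At their brightest probe sets the inducible and the constitutive gene thus lay on different sides of background. *SRXN1*, a target whose product repairs oxidized peroxiredoxins, was not analysed here.

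NRF2 binds the antioxidant response element, with the core letters TGACNNNGC. These letters were searched on both strands in windows of 300 bases (250 before the start site and 50 after), taken from RefSeq, assembly GRCh38.p14. Of the 32 members 25 had such a window, and 40 windows belonged to them. The letters were found in 5 of the 40 (12.5%), against 13.3% of 35116 windows of all genes, so the members' share was near that of all windows. The 5 windows belong to *GCLM*, *GPX2*, *KEAP1* and *TXNRD1*, the last with 2 start sites. Of the members with a window 16% had a match, against 16.1% of all genes with a window. A stretch of each window is shown as a description of the letters only, in members on either side of background. Each is written 5′ to 3′ along the gene, with the match in capitals. In *TXNRD1* at its upstream start site the capitals read in the direction of the gene, and in the others they are the reverse complement, GCNNNGTCA.
GCLM: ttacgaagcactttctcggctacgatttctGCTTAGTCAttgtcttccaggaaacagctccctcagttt
KEAP1: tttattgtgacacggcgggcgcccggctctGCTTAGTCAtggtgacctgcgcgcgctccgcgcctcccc
GPX2: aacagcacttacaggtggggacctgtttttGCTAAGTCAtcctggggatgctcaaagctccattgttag
TXNRD1, upstream start site: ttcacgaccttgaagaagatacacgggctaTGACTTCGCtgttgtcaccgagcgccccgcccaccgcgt
TXNRD1, downstream start site: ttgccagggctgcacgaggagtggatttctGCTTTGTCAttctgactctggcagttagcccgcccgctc

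These stretches lie at chr1:93909426-93909494 (minus strand) for *GCLM*, chr19:10502764-10502832 (minus) for *KEAP1* and chr14:64942829-64942897 (minus) for *GPX2*. Those of *TXNRD1* lie at chr12:104215650-104215718 and chr12:104286900-104286968, on the plus strand. The capitals begin 34 bases before the start site in *GCLM*, 31 in *KEAP1*, 122 in *GPX2*, and 99 and 102 in the windows of *TXNRD1*. *KEAP1* and the upstream window of *TXNRD1* each held 1 further match. The 9 letters in capitals are the same in *GCLM* and *KEAP1*. None of the matches overlapped the letters TGACTCA or TGAGTCA, those of the AP-1 factors. *GCLM*, *KEAP1* and *TXNRD1* were above background in the cultures and *GPX2* was not. Windows of *NQO1* and *SRXN1* held no match, which says only that the letters are absent from these 300 bases. A match is a run of letters and no measured binding.

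The wider pathway was read from 6 lists of genes that are not members. Their counts are to be read beside the 44.7% of all measured genes that were above background. Of 19 measured other partners and targets of NRF2 13 were above background, among them *MAFF* (11.30, 10.68 and 10.75 in cultures 1, 2 and 3), the gene of a small MAF protein of the kind that pairs with NRF2. *SLC7A11*, whose product imports cystine for glutathione synthesis, read 9.11, 9.45 and 9.83, and the NRF2 antagonist gene *BACH1* 7.65, 7.84 and 8.17. Among the genes of the list above background, these 3 had the widest ranges. Of the 6 not above background, 4 were the aldo-keto reductase genes *AKR1B10*, *AKR1C1*, *AKR1C2* and *AKR1C3*, with means of 5.78, 6.65, 6.07 and 4.36. The others were *EPHX1* and *OSGIN1*. Targets known to follow NRF2 thus lay on both sides of the threshold.

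Of 9 measured genes listed under the supply of NADPH, the electron source of these reductases, 7 were above background. That is 77.8%, against 44.7% of all measured genes. Some of the listed enzymes do not make NADPH themselves. Among those 7, *IDH2*, *PGD* and *MTHFD1* had the widest ranges, from 0.21 to 0.28. *ME1* and *NNT* were not above background. Of 17 genes of glutathione transferases and glutathione turnover 12 were above it. *GSTP1*, the main transferase of many epithelia, read 10.86, 9.92 and 10.59, while *GGCT*, of glutathione breakdown, and the glyoxalase gene *GLO1* had ranges of 0.49 and 0.37. *GSTA1*, *GSTA4*, *GSTM4*, *GSTT1* and *OPLAH* were not above it. Of 13 other thiol oxidoreductases 11 were above background, and *GPX5* and *GPX7* were not. Among the 11, *TMX1*, *GLRX3* and *MSRA* were widest in range, from 0.30 to 0.46.

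Of 5 measured genes that make selenoproteins, the class that holds the glutathione peroxidases above and the thioredoxin reductases, 4 were above background: *SECISBP2*, *SEPHS1*, *SEPHS2* and *TRNAU1AP*. The exception was *SCLY*, the selenocysteine lyase gene, at 6.40 ± 0.20. By the same rule 44.7% of all measured genes were above background. With the highest panel value as threshold 2 of the 5 were above background, which is 40% against 38.1% of all genes. Of 16 genes of oxidant-producing enzymes, such as NADPH oxidases, nitric oxide synthases and xanthine dehydrogenase, 0 were above background on all 3 arrays. The limma test also called 0 of them, while 1 or 2 were called under 5 other settings: 2 with the 90th percentile of the panel, and 1 each on 2 of 3 arrays, with the mean over probe sets, without culture 2, and without _x_at and _s_at probe sets. *NOX5*, an NADPH oxidase gene, came nearest, with 7.26, 6.93 and 7.54, over the threshold on 2 of the 3 arrays. Their low values do not show that the enzymes are absent, since a probe set of low affinity also reads within background.

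**Figure D2:**
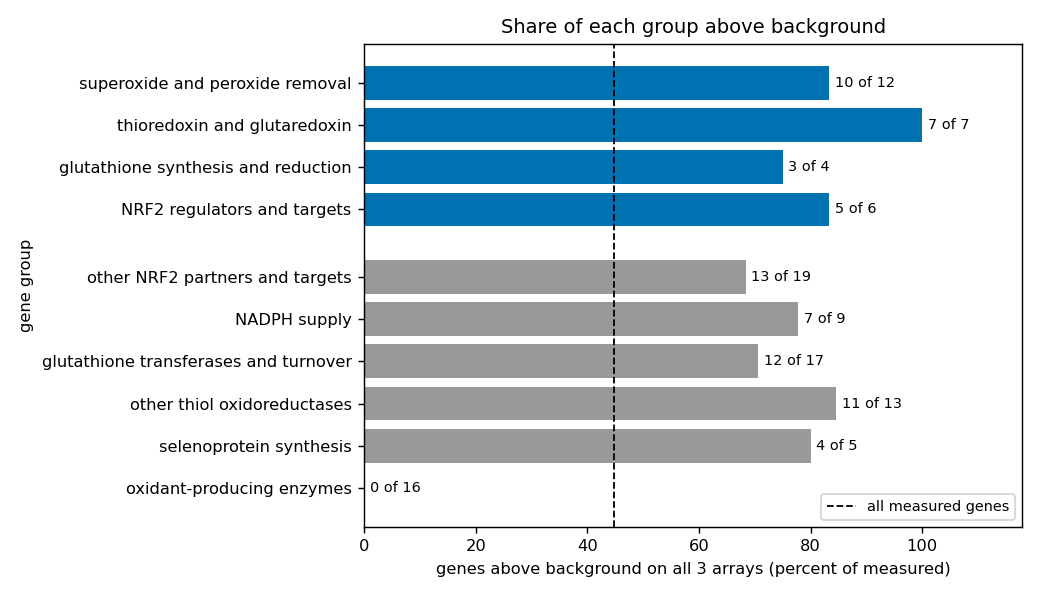
Percent of the measured genes of each group that were above background on all 3 arrays; blue bars are the 4 classes of members, grey bars the 6 wider lists, and a dashed line stands at the share of all measured genes (44.7%). The bars of the 4 classes and of 5 wider lists end to the right of the line, between 68.4% and 100%, and the oxidant-producing enzymes have no bar (0 of 16).

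Probe sets of the same member often disagreed on background. Of the 48 probe sets of members 33 (68.8%) were above background on all 3 arrays, against 36.1% of all probe sets that name 1 gene. Of the 14 members with several probe sets, all of them were above background for 5 (*PRDX6*, *TXN2*, *TXNIP*, *GSS* and *NQO1*) and none for *GPX3*. In the other 8 the probe sets were split. Neither such splits nor the count that follows were taken over all genes, so they are not read as particular to the members. For 10 of the 25 genes above background the brightest probe set was of the _x_at or _s_at kind, which can match several transcripts. Without such probe sets, and with the thresholds set anew, 18 of 23 measured members were above background (39.8% of all genes), and the thioredoxin class had 4 of 6, as *TXN* and *TXNRD2* were not above it at their remaining probe sets.

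**Figure D3:**
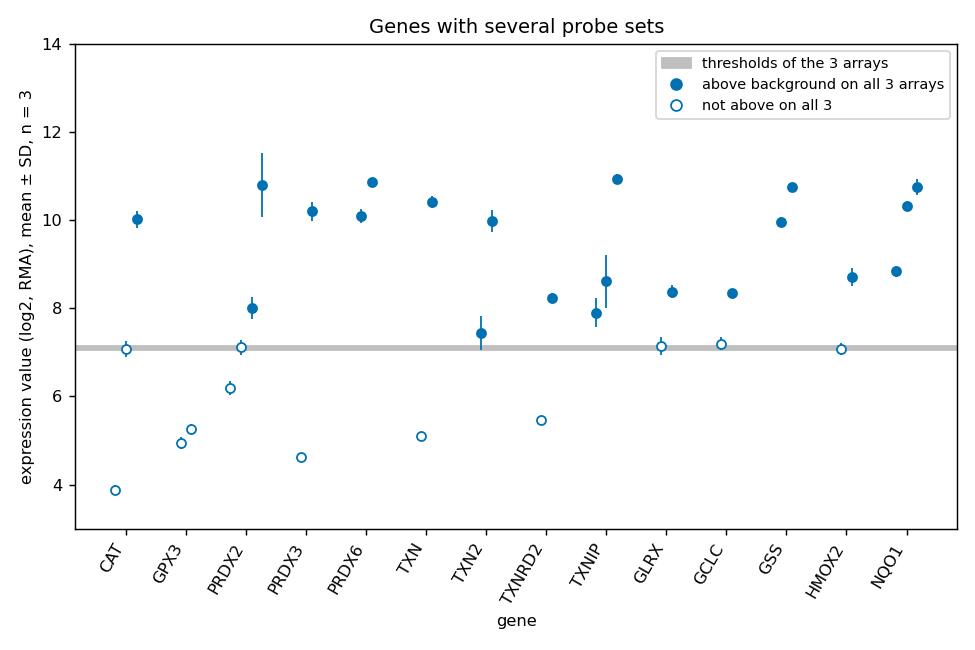
Mean value of each probe set (log2, RMA; error bars, SD over 3 cultures) of the 14 members with more than 1 probe set; filled symbols are above background on all 3 arrays, open symbols are not, and the grey band spans the thresholds. In 8 genes filled and open symbols occur together, as in *TXN* (10.41 and 5.10), and *GPX3* has open symbols only.

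At their brightest probe sets the members varied little between the cultures. The median SD over the 25 members above background was 0.15 log2 units, and over all genes above background it was 0.14. Without culture 1 these medians were 0.06 and 0.09, so much of the spread lay between culture 1 and the others, among the members and among all genes. An SD under 0.5 was found for 24 of the 25, the exception being *PRDX2*. Of the 25, 3 (12%) had a range of 0.5 log2 units or more, namely *PRDX2* (1.26), *GLRX2* (0.62) and *PRDX4* (0.57), against 16.7% of all genes above background. The shares are near each other, so at these probe sets the members did not stand out in spread. Dimmer probe sets above background could be wider. Those of *TXNIP* had ranges of 1.05 (SD 0.60) and 0.57, that of *TXN2* 0.71 and that of *PRDX2* 0.50. Those of *PRDX6*, *GSS* and *NQO1* had ranges from 0.16 to 0.32.

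Culture 1 was the odd one for most members, as for 50.6% of all genes above background, but in no common direction. It was the lowest of the 3 cultures for 12 of the 25 members above background, the highest for 10 and between the others for 3. Over all genes above background it was lowest in 39.4% and highest in 40.1%. The median of culture 1 minus the mean of cultures 2 and 3 was -0.01 log2 units over the members and 0.00 over all genes above background. Culture 1 lay farther from its nearest neighbour than the others lay from each other for 16 of the 25 members (64%) and 50.6% of all genes above background. With 1 array per culture, no difference between cultures could be tested, and culture batch and array cannot be told apart.

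The genes lowest in culture 1 were *SOD1*, *SOD3*, *CAT*, *PRDX1*, *PRDX3*, *PRDX6*, *TXNRD1*, *TXNIP*, *GLRX2*, *GCLM*, *GSS* and *KEAP1*. Those highest there were *GPX1*, *GPX4*, *PRDX2*, *PRDX4*, *TXN*, *TXN2*, *TXNRD2*, *GCLC*, *NFE2L2* and *NQO1*. The products known from mitochondria were divided, *PRDX3* and *GLRX2* being lowest and *TXN2* and *TXNRD2* highest. The selenium enzymes were divided too, with *TXNRD1* lowest and *GPX1*, *GPX4* and *TXNRD2* highest. Of the 6 members with 2 or more probe sets above background, these placed culture 1 alike in 5 (*PRDX2*, *PRDX6*, *TXN2*, *TXNIP* and *GSS*) and differently in *NQO1*. The same count was not taken over all genes. Between cultures 2 and 3 the largest difference among members above background was 0.43, in *HMOX2*.

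**Figure D4:**
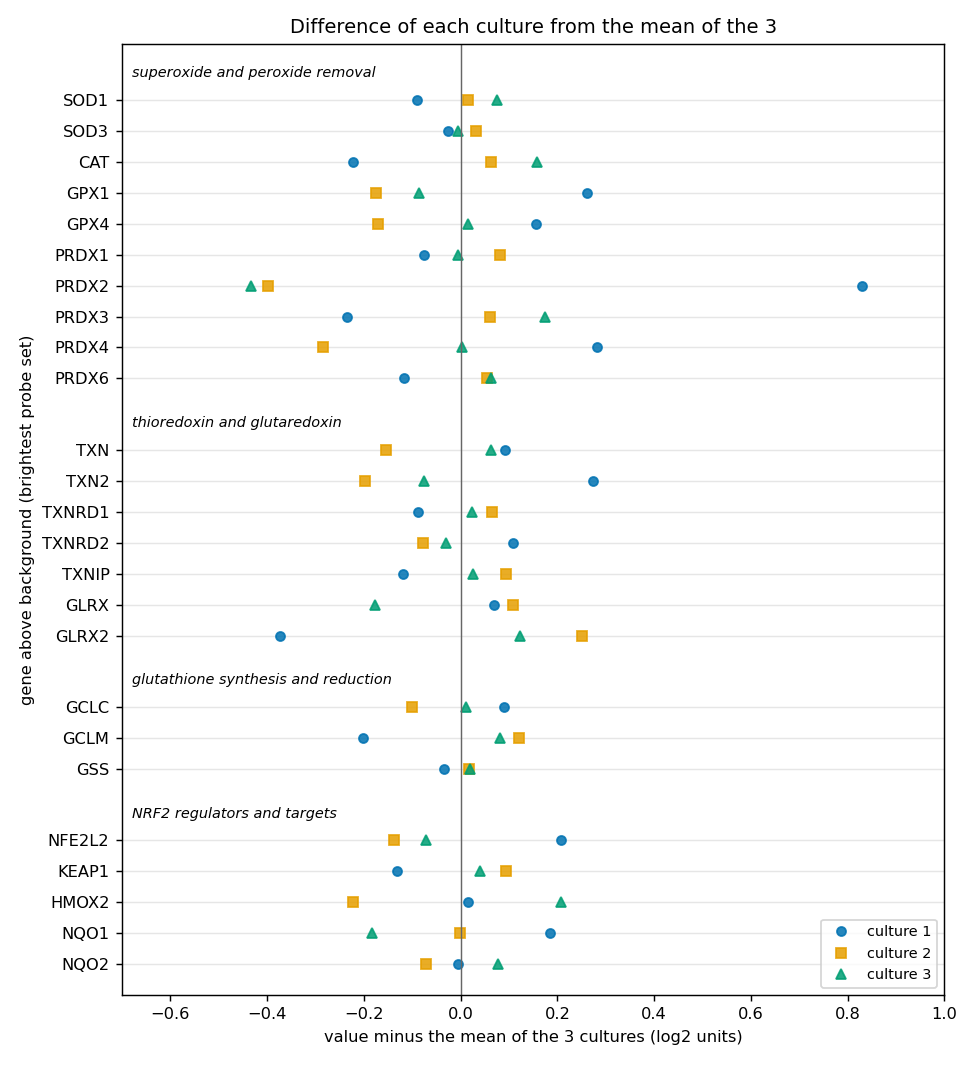
Value of each culture minus the mean of the 3 cultures (log2 units) for the 25 members above background at their brightest probe set, with 1 symbol per culture. Culture 1 lies at the left end for 12 genes and at the right end for 10, and farthest out for *PRDX2* (range 1.26).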

How the data were processed

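Expression was measured in 3 iHCE cultures, 1 Affymetrix HG-U133A array each. The authors computed log2 expression values by RMA in R 2.8.0, per the submitters' processing notes, and deposited them for 22283 probe sets. RMA subtracts background, equalizes the arrays and fits 1 value per probe set, which compresses low values. The methods describe a gene-based probe annotation and a run with the tissue arrays, but the deposited rows are the manufacturer's probe sets, and which arrays shared their run is not stated. The annotation named 1 gene for 19071 probe sets and several for 1043, and 2169 were not listed. Symbols were updated in RefSeq (GRCh38.p14), except 12. The panel held 64 genes, 55 of them measured, of which 1 was above background.

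Members, lists, panel and named genes were chosen with earlier results of these data known. All members are named. Of each wider list the 3 genes of widest range above background and up to 5 exceptions are named; the 6 exceptions among NRF2 partners, *SECISBP2*, *NOX5* and *NOS1* were named after their values were seen. No set test was run. Each mean rests on 3 arrays, and the SD covers culture and technical variation.

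The alternatives were other thresholds, calls on 2 arrays, a one-sided limma test (limma 3.58.1, R 4.3.3; Benjamini-Hochberg adjusted p under 0.05), quantile normalization, other probe set rules and leaving out each culture. Steps were tested on simulated data. Windows overlapping on opposite strands were reverse complements in all 2753 cases checked.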

Additional observations from a re-analysis of the deposited data

How the results depend on the processing

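The number of members above background stayed between 24 and 26 of 29 under 10 of 11 alternatives, while the share of all genes ran from 34.1% (median plus 3 scaled MADs) to 49.6% (90th percentile). It was 18 of 23 without _x_at and _s_at probe sets, against 39.8% of all genes. The 90th percentile, calls on 2 arrays and leaving out a culture only relax the rule at a given probe set. They could keep or add calls there but not lose them, and quantile normalization repeats a step of RMA. The calls were thus put at risk mainly by the higher thresholds, the limma test and the other probe set rules. Of the 25 calls 22 held under every alternative that measured the gene. The others were *SOD3*, lost with the median plus 3 scaled MADs, and *TXN* and *TXNRD2*, lost without _x_at and _s_at probe sets. *GPX1*, *PRDX6*, *TXNIP*, *NQO1* and *NQO2* have only _s_at probe sets and were not measured without them, so that alternative could not test their calls. *GSR* gained its call under 5 alternatives (the 90th percentile, 2 of 3 arrays, the mean over probe sets, leaving out culture 1, and leaving out _x_at and _s_at probe sets). Without _x_at and _s_at probe sets 19 of 27 member probe sets were above background, 4 of 6 thioredoxin and glutaredoxin genes and 3 of 4 NRF2 regulators and targets. In that setting fewer probe sets were counted and the thresholds, set anew from the panel, were lower at 6.88, 6.87 and 6.73.

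The wider lists, tried under the same alternatives after the data were seen, had without these probe sets 7 of 12 (NRF2 partners), 4 of 7 (NADPH), 6 of 9 (glutathione) and 6 of 10 (thiol oxidoreductases) above background, or 57.1% to 66.7% against 39.8% of all genes. Of the selenoprotein list 2 were above background with the highest panel value or the median plus 3 scaled MADs, without *SECISBP2* and *TRNAU1AP*, a share of 40% against 38.1% and 34.1% of all genes. Of the oxidant-producing enzymes 2 (*NOX5* and *NOS1*) were above with the 90th percentile, and 1, *NOX5*, on 2 of 3 arrays, with the mean over probe sets, without culture 2, and when _x_at and _s_at probe sets were left out. Leaving out each culture gave 0 to 1.

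Leaving out each culture gave a median SD of the members of 0.0622 (without culture 1) to 0.1595. The median of culture 1 minus the others was -0.01, and it was 0.02399 over all measured members and 0.04187 after quantile normalization, so its sign is not settled. It was -0.1224 without _x_at and _s_at probe sets (18 members), -0.05256 with every probe set counted on its own, and -0.05 and -0.04 without culture 2 or 3.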
